A study of Mus musculus with 9 samples.

Results

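The 10 genes described here are 6 insulin-like growth factor (IGF) binding proteins (Igfbp2, Igfbp3, Igfbp4, Igfbp5, Igfbp6 and Igfbp7), the IGF receptor Igf1r, the receptor adaptors Irs1 and Irs2, and the transcription factor Foxo1. They were chosen by gene symbol and were taken from 46517 genes quantified by RNA sequencing in 9 libraries of mouse organoids. The organoids came from duodenal crypts of wild-type C57BL/6J mice and were transduced with 1 of 3 adenoviruses, with 3 libraries each: Ad-GFP, which carries green fluorescent protein and controls only for transduction, Ad-hHIF2, and Ad-hHIF1. Both HIF viruses carry human HIF2 or HIF1 in which the prolines that mark the protein for degradation were replaced by alanine, so that the comparison with Ad-GFP asks which transcripts change when a stable hypoxia-inducible factor (HIF) is overexpressed for a short time. Organoids of all 3 groups were grown in Matrigel with medium conditioned by L-WRN cells, which supplies Wnt3a, R-spondin 3 and noggin. According to the paper, organoids were cultured at an oxygen level below that of air. After transduction the medium also held a ROCK inhibitor, an inhibitor of the TGF-beta receptor kinase and nicotinamide. The Ad-GFP group is therefore not a baseline at the oxygen level of air. All groups carried an adenovirus, so no group is free of transduction. The replicates are numbered 1, 3 and 4 in each group, and nothing in the labels says which replicates came from separate mice.

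IGF ligands and insulin act through related receptor tyrosine kinases. The binding proteins hold IGF outside the cell and set how much of it reaches Igf1r, the receptor phosphorylates Irs1 and Irs2, and these adaptors pass the signal to PI3-kinase and AKT, which keeps FOXO transcription factors out of the nucleus. In the intestine this pathway is known for its part in crypt growth and repair after injury.

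Promoter windows of the 3 genes that changed most are shown because the HIF transcription factors are known to bind short core motifs in DNA. The windows are 300 bases long, from 250 bases before to 50 after the start of transcription, and come from RefSeq on GRCm38.p6. Both cores, ACGTG and GCGTG, were searched on both strands and are set in capitals (CACGT and CACGC where the core lies on the opposite strand). A CACGTG stretch counts once on each strand. The Igfbp3 window lies at chr11:7213874-7214173 on the minus strand, the Igfbp7 window at chr5:77407996-77408295 on the minus strand and the Foxo1 window at chr3:52268087-52268386 on the plus strand.
Igfbp3: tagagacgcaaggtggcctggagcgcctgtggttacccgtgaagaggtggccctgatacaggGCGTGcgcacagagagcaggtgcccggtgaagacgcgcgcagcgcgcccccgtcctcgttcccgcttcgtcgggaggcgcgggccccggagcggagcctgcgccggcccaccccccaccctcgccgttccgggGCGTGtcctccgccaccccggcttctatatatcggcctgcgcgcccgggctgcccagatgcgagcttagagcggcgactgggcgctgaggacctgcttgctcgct
Igfbp7: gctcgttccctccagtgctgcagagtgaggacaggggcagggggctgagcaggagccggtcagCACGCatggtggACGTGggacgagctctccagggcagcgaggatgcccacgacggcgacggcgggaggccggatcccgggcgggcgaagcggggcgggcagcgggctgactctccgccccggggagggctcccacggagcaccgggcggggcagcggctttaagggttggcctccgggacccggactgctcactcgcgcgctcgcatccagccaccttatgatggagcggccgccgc
Foxo1: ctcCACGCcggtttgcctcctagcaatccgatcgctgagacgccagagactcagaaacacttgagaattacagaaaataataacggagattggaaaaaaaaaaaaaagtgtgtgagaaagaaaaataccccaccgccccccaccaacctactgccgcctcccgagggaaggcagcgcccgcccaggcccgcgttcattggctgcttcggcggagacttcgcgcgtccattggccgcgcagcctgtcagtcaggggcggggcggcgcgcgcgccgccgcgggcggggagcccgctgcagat

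The Igfbp3 window held GCGTG on the strand of the gene at positions -188 and -55 from the start. The Igfbp7 window held GCGTG on the opposite strand at -187 and ACGTG on its own strand at -175, and the Foxo1 window held a single GCGTG on the opposite strand at -247. All 10 genes matched at least 1 window by symbol, and 8 of their 11 windows held a core. Among all 32851 windows of this length, 43.8% held a core. Windows with 2 or more matches made up 20.6% of all windows. Genes that did not pass the test below also held cores: Igf1r, Irs1 and Irs2 had 3 matches each, and the windows of Igfbp2 had 4 and 1. The windows of Igfbp4, Igfbp5 and Igfbp6 held none. The cores thus did not set the genes that changed apart from those that did not. These matches describe the sequence and are not binding sites.

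The libraries held 21722618 to 51119041 expected counts. Expected counts are read numbers that RSEM shares out among transcripts, and all levels below are CPM, counts relative to library size, scaled by TMM factors over the 9 libraries unless another scale is named. The mouse gene Epas1, which encodes HIF2, stood at 604.3 to 757.5 CPM in Ad-hHIF2 and at 1.47 to 3.07 CPM in the other 6 libraries. Hif1a stood at 299.3 to 319.2 CPM in Ad-hHIF1 against 197.6 to 251.2 CPM in Ad-GFP, and how reads of the human transgenes were shared with the mouse genes was not tested. The labelled tissue was checked against its markers. The epithelial genes Krt8, Krt18, Krt19 and Cdh1 were high in every library, but Epcam stood at 1.42 to 3.80 CPM, the brush border gene Vil1 at 3.27 to 4.94 CPM, the intestinal identity factor Cdx2 at 6.55 to 8.99 CPM, the stem cell gene Lgr5 at 0.0 to 1.19 CPM, and Olfm4 stayed under 10 counts in every library. Of 10 further intestinal genes, chosen after these levels were seen, 6 (Fabp1, Alpi, Lyz1, Chga, Tff3 and Cdx1) stayed under 10 counts in every library, while Hnf4a stood at 21.2 to 35.5 CPM and Krt20 at 34.3 to 53.3 CPM. The values therefore belong to cells labelled duodenal organoids in which several defining intestinal markers were at or near 0 and others, Cdx2, Hnf4a and Krt20 among them, were detected. A library that stood apart was Ad-hHIF1 replicate 3, in which the satellite transcripts Gm10800 and Gm26870 took 15.964% of the counts, against 0.433% to 4.279% in the other 8.

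In Ad-hHIF2, Igfbp3 rose 5.78-fold, Foxo1 rose 2.14-fold and Igfbp7 fell 2.09-fold against Ad-GFP, while Igfbp4, Igf1r, Irs1 and Irs2 did not pass the test. In Ad-hHIF1 none of these genes passed. Passing means that the p of edgeR's quasi-likelihood test, adjusted over all genes by the Benjamini-Hochberg method, was under 0.05, and called genes also changed at least 2-fold. Of the 10 genes, 7 were expressed enough to be tested in Ad-hHIF2 against Ad-GFP, and 2 of them were called higher and 1 lower. Among all 14987 genes tested, 2.9% were called higher and 3.83% lower, and 15.9% passed as higher and 13.6% as lower on the adjusted p alone. The median log2 fold change was -0.04 for the 7 genes and -0.01 for all genes tested.

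**Figure D1:**
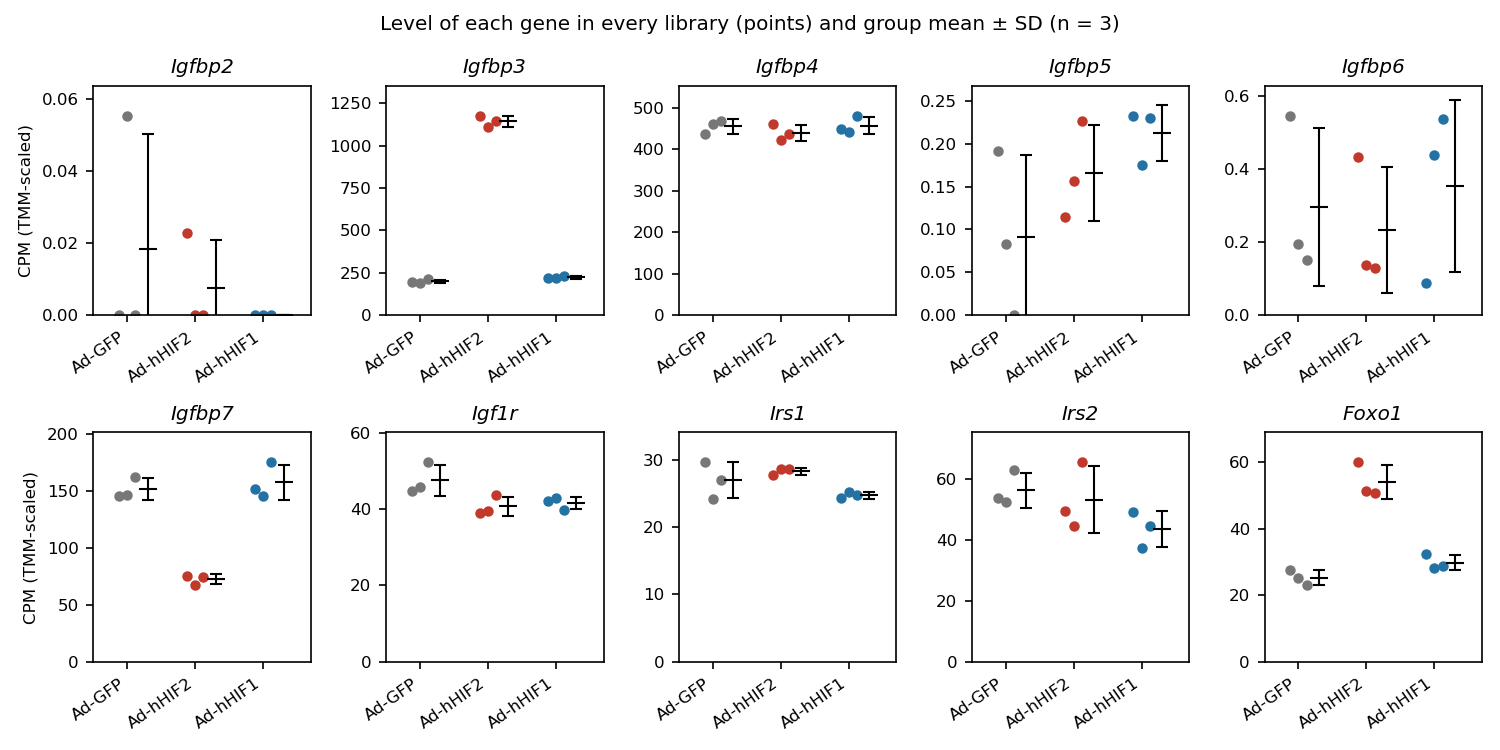
Level of each of the 10 genes in CPM (TMM-scaled, linear axes from 0, a separate axis per gene) in every library, with points for replicates 1, 3 and 4 and bars for mean ± SD (n = 3). The Ad-hHIF2 libraries lie apart from the other 6 for Igfbp3, Igfbp7 and Foxo1, and the axes of Igfbp2, Igfbp5 and Igfbp6 end below 1 CPM.

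Igfbp3, the main carrier of IGF in blood, which also acts on cells directly, is encoded at chr11:7206086-7213923 on the minus strand (GENCODE M21, GRCm38). Its level was 194.0, 191.2 and 210.5 CPM in Ad-GFP replicates 1, 3 and 4, and 1176, 1110 and 1146 CPM in Ad-hHIF2. In Ad-hHIF1 it was 217.9, 217.7 and 230.5 CPM. The 3 Ad-hHIF2 libraries lay far above the other 6, and the Ad-hHIF1 libraries lay a little above all Ad-GFP libraries. The log2 fold change in Ad-hHIF2 was 2.53 ± 0.09 (SE), a 5.78-fold rise with a 95% confidence interval of 5.05 to 6.61 (edgeR adjusted p = 4.81e-07). It ran from 2.50 to 2.58 when each library was left out in turn. In Ad-hHIF1 the log2 fold change was 0.16 ± 0.08 (edgeR adjusted p = 0.602), so that the small offset of Ad-hHIF1 did not pass. In the direct comparison Igfbp3 was 5.15-fold higher in Ad-hHIF2 than in Ad-hHIF1 (interval 4.58 to 5.79, edgeR adjusted p = 5.38e-08), and the log2 difference of 2.36 became 2.34 without Ad-hHIF1 replicate 3.

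Igfbp7, a secreted protein of the family that binds IGF weakly and insulin more strongly, lies at chr5:77349240-77408041 on the minus strand. Its level was 145.4, 146.0 and 162.3 CPM in Ad-GFP and 75.41, 67.28 and 74.22 CPM in Ad-hHIF2. In Ad-hHIF1 it was 151.8, 145.5 and 174.9 CPM. The Ad-hHIF2 libraries lay below all others, whereas Ad-hHIF1 overlapped Ad-GFP. The log2 fold change in Ad-hHIF2 was -1.06 ± 0.08, a 2.09-fold fall (edgeR adjusted p = 4.55e-05), and against Ad-hHIF1 Igfbp7 was 2.18-fold lower (edgeR adjusted p = 1.42e-05). In Ad-hHIF1 against Ad-GFP the log2 fold change was 0.06 ± 0.10 (edgeR adjusted p = 0.874). The fall in Ad-hHIF2 lies close to the 2-fold threshold. Without Ad-GFP replicate 4 Igfbp7 fell by 0.9995 on the log2 scale, just short of 2-fold, at an edgeR adjusted p of 8.63e-05. With counts scaled by library totals alone it was -0.80 (edgeR adjusted p = 0.000471), and on log2(TPM + 1) it was -0.57 (limma adjusted p = 0.305) and on log2(TPM + 0.1) -0.61 (limma adjusted p = 0.253), so that it did not pass on either TPM scale.

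TPM divides counts by transcript length before scaling each library to a constant sum and allows levels to be compared between genes. The 20 genes with the highest mean TPM over all libraries took 76.2% to 81.0% of all TPM in each library. Igfbp7 stood at 17.81, 19.04 and 19.57 TPM in Ad-GFP and at 19.08, 9.28 and 10.53 TPM in Ad-hHIF2. Ad-hHIF2 replicate 1 thus overlapped Ad-GFP on this scale. The same library had the highest TPM of its group for Igfbp3, Igfbp4, Igfbp6, Igfbp7, Igf1r, Irs1, Irs2 and Foxo1, and the cause was not tested. TPM are therefore compared here between genes within a library.

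Igfbp4, a binding protein known to hold IGF away from its receptor, lies at chr11:99041244-99054392. It was at 435.8, 461.4 and 468.0 CPM in Ad-GFP, 461.3, 423.3 and 436.4 CPM in Ad-hHIF2 and 448.4, 441.5 and 480.6 CPM in Ad-hHIF1. All 3 groups overlapped. The log2 fold change was -0.04 ± 0.08 in Ad-hHIF2 (95% confidence interval -0.22 to 0.13, edgeR adjusted p = 0.707) and 0.01 ± 0.08 in Ad-hHIF1 (interval -0.18 to 0.19, edgeR adjusted p = 0.988). Between Ad-hHIF2 and Ad-hHIF1 Igfbp4 differed by -0.05 (interval -0.22 to 0.11, edgeR adjusted p = 0.652).

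Within each library, the make-up of the binding protein transcripts was compared as each gene's share of the summed TPM of Igfbp2 to Igfbp7. Igfbp3 took 17.4%, 16.6% and 17.6% in Ad-GFP, 60.4%, 61.6% and 60.0% in Ad-hHIF2, and 19.7%, 19.3% and 17.5% in Ad-hHIF1. Igfbp7 took 29.0% to 30.5% in Ad-GFP, 8.58% to 8.88% in Ad-hHIF2 and 30.1% to 31.3% in Ad-hHIF1. Igfbp4 took 51.9% to 54.3%, 29.8% to 31.1% and 49.0% to 52.3%. The most abundant binding protein transcript was thus Igfbp4 in every Ad-GFP and Ad-hHIF1 library and Igfbp3 in every Ad-hHIF2 library. The TPM of Igfbp3 were 0.574 to 0.586 times those of Igfbp7 in Ad-GFP, 6.76 to 7.18 times in Ad-hHIF2 and 0.582 to 0.638 times in Ad-hHIF1. These shares are free of the library's TPM scale, and Ad-hHIF2 replicate 1 lay with the other Ad-hHIF2 libraries.

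**Figure D2:**
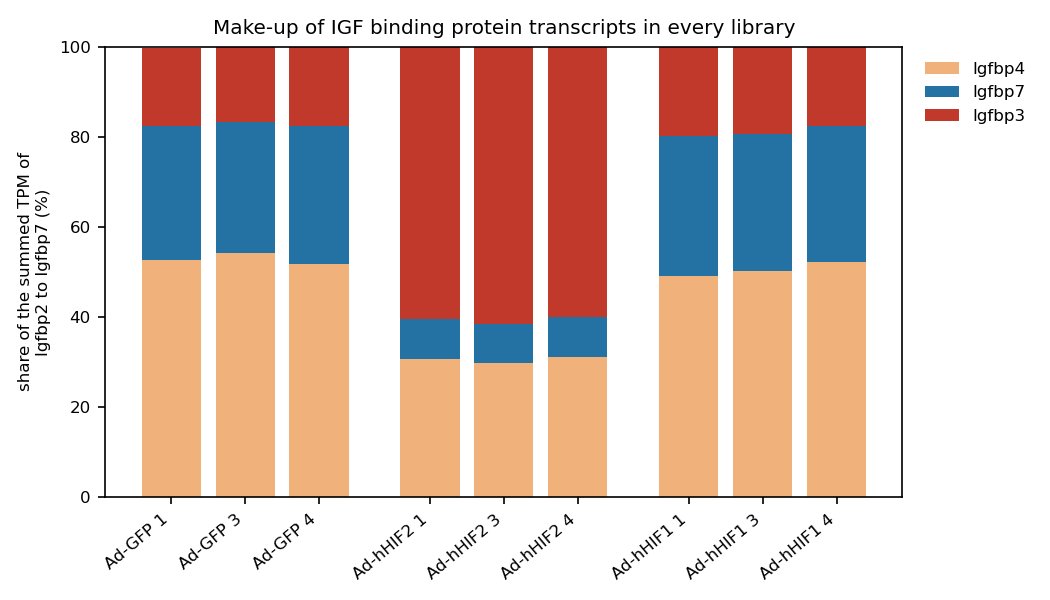
Share (%) of the summed TPM of Igfbp2 to Igfbp7 taken by Igfbp4, Igfbp7 and Igfbp3 in every library, as stacked bars from 0 to 100% by group and replicate number. Igfbp3 takes 60.0% to 61.6% in Ad-hHIF2 and 16.6% to 19.7% in the other 6 libraries, and Igfbp2, Igfbp5 and Igfbp6 are too rare to be drawn.

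The remaining binding proteins were at or near the limit of detection. Igfbp2 had 0, 2 and 0 counts in Ad-GFP, 1, 0 and 0 in Ad-hHIF2 and 0 in every Ad-hHIF1 library. Igfbp5 had 7, 3 and 0 counts in Ad-GFP, 5, 8 and 7 in Ad-hHIF2 and 8, 4 and 9 in Ad-hHIF1. Igfbp6 had 20, 7 and 3, then 19, 7 and 4, then 3, 10 and 21 counts in the same order. In these libraries 3 counts, taken as an approximate upper limit for an observed 0, come to 0.0589 to 0.15 CPM. Differences below that were taken as not detectable, and this limit covers counting error only. Igfbp2 and Igfbp5 were not tested in any comparison, and Igfbp6 was tested only where the Ad-hHIF1 libraries entered. Its log2 fold change was 0.21 ± 0.83 in Ad-hHIF1 against Ad-GFP (edgeR adjusted p = 0.952) and -0.57 ± 0.82 in Ad-hHIF2 against Ad-hHIF1 (edgeR adjusted p = 0.661).

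Binding proteins are known products of fibroblasts and endothelial cells as well, so markers of other cell types were read beside them. The summed level of 10 fibroblast and smooth muscle genes was 1120 to 1150 CPM in Ad-GFP, 1740 to 1820 CPM in Ad-hHIF2 and 1020 to 1110 CPM in Ad-hHIF1. Nearly all of it was Vim, an intermediate filament gene that cultured epithelial cells can also express. Vim stood at 1111 to 1134 CPM in Ad-GFP, 1723 to 1810 CPM in Ad-hHIF2 and 1005 to 1096 CPM in Ad-hHIF1. The other 9 genes, Col1a1, Col3a1 and Pdgfra among them, summed to 12.9 to 19.1, 10.2 to 13.2 and 10.1 to 20.6 CPM, and Lum stayed under 10 counts in every library. The 4 endothelial genes summed to 1.02 to 3.12 CPM over all libraries, with Tek under 10 counts, and the 4 leukocyte genes to 8.29 to 15.2 CPM, with Cd3e and Cd79a under 10 counts. The part of the Vim difference in the Igfbp3 and Igfbp7 results was not tested, and in bulk libraries fewer cells of a type and less RNA per cell cannot be told apart.

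RSEM's effective length of a gene is the abundance-weighted mean of its transcripts' lengths, each shortened by an amount set by the library's fragment sizes. It was read as a measure of isoform use that CPM do not give, relative to Igf1r in the same library to take out that amount. For Igfbp3 it was 2238 ± 5.15 bases (SD, n = 3) in Ad-hHIF2 and 2218 ± 15.4 bases in Ad-GFP. The difference of 20.3 bases separated the groups without overlap, at an exact two-sided permutation p of 0.1, the smallest that 3 against 3 libraries can give. In Ad-hHIF1 the difference from Ad-GFP was 12.2 bases with overlap (exact permutation p = 0.5). For Igfbp7 in Ad-hHIF2 the difference was -0.163 bases (exact permutation p = 0.6). For Igfbp4 it was 60.8 bases in Ad-hHIF2 (exact permutation p = 0.4) and 62.1 bases in Ad-hHIF1 (exact permutation p = 0.6), with overlap in both. The effective lengths of Igfbp2 and Igfbp5 rest on 0 to 9 counts a library and are not read.

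Igf1r, the receptor tyrosine kinase for IGF1 and IGF2, lies at chr7:67952827-68233668. It was at 44.81, 45.7 and 52.24 CPM in Ad-GFP, 39.01, 39.42 and 43.6 CPM in Ad-hHIF2 and 42.1, 42.83 and 39.84 CPM in Ad-hHIF1. Every library of either HIF group lay below every Ad-GFP library. Neither difference passed the test. The log2 fold change was -0.22 ± 0.09 in Ad-hHIF2 (95% confidence interval -0.42 to -0.03, edgeR adjusted p = 0.0864) and -0.19 ± 0.08 in Ad-hHIF1 (interval -0.38 to -0.01, edgeR adjusted p = 0.581). Both comparisons use the same Ad-GFP libraries. With counts scaled by library totals alone the log2 fold change in Ad-hHIF2 was 0.03 (edgeR adjusted p = 0.919). That scaling moved the median of all genes to 0.245, and relative to this median Igf1r stood at -0.213. Ad-hHIF2 and Ad-hHIF1 overlapped, with a log2 difference of -0.03 (interval -0.21 to 0.14).

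Irs1, at chr1:82233101-82291416 on the minus strand, and Irs2, at chr8:10984681-11008458 on the minus strand, are docking proteins that carry the signal of the IGF and insulin receptors to PI3-kinase. Irs1 was at 29.65, 24.25 and 27.04 CPM in Ad-GFP, 27.73, 28.66 and 28.65 CPM in Ad-hHIF2 and 24.29, 25.27 and 24.73 CPM in Ad-hHIF1. Irs2 was at 53.58, 52.38 and 62.93 CPM in Ad-GFP, 49.53, 44.5 and 65.43 CPM in Ad-hHIF2 and 49.11, 37.35 and 44.37 CPM in Ad-hHIF1. Both HIF groups overlapped Ad-GFP for Irs1, while for Irs2 the Ad-hHIF1 libraries lay below all Ad-GFP libraries and the Ad-hHIF2 libraries spread across them. In Ad-hHIF2 the log2 fold change was 0.08 ± 0.09 for Irs1 (95% confidence interval -0.12 to 0.27, edgeR adjusted p = 0.550) and -0.08 ± 0.14 for Irs2 (interval -0.41 to 0.25, edgeR adjusted p = 0.715). In Ad-hHIF1 it was -0.12 ± 0.09 for Irs1 (edgeR adjusted p = 0.708) and -0.37 ± 0.12 for Irs2 (interval -0.64 to -0.09, edgeR adjusted p = 0.509). Irs1 was higher in each Ad-hHIF2 library than in each Ad-hHIF1 library, by 0.20 ± 0.08 on the log2 scale, and this did not pass (edgeR adjusted p = 0.0975). For Irs2 the same difference was 0.28 ± 0.15 with overlapping groups (edgeR adjusted p = 0.197), and it passed only without a filter on low counts (0.31, edgeR adjusted p = 0.0251).

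Foxo1, a forkhead transcription factor that AKT inactivates and that drives genes of fasting, cell cycle arrest and stress resistance, lies at chr3:52268336-52353221 on the plus strand. It was at 27.65, 25.25 and 22.99 CPM in Ad-GFP and at 59.95, 51.25 and 50.81 CPM in Ad-hHIF2. In Ad-hHIF1 it was at 32.29, 28.07 and 28.74 CPM. The Ad-hHIF2 libraries lay above the other 6, and the Ad-hHIF1 libraries lay between these and Ad-GFP without overlapping either. The log2 fold change in Ad-hHIF2 was 1.10 ± 0.09, a 2.14-fold rise (95% confidence interval 1.84 to 2.48, edgeR adjusted p = 7.53e-05). It ran from 1.04 to 1.17 when each library was left out in turn and was 0.61 on log2(TPM + 1) (limma adjusted p = 0.0307), a scale that understates changes of low genes. In Ad-hHIF1 it was 0.23 ± 0.10 (interval 0.01 to 0.45, edgeR adjusted p = 0.581). Foxo1 was 1.82-fold higher in Ad-hHIF2 than in Ad-hHIF1 (interval 1.57 to 2.11, edgeR adjusted p = 0.00013), which passed the adjusted p but not the 2-fold threshold. Without Ad-hHIF1 replicate 3 this log2 difference of 0.86 was 0.81, and with counts scaled by library totals it was 1.055, past 2-fold (edgeR adjusted p = 0.000746). That scaling moved the median of all genes to 0.173, and relative to this median Foxo1 stood at 0.882, short of 2-fold. The Foxo1 difference did not pass on either TPM scale, at 0.50 on log2(TPM + 1) (limma adjusted p = 0.125) and 1.002 on log2(TPM + 0.1) (limma adjusted p = 0.0804).

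In Ad-hHIF1 against Ad-GFP, 8 of the 10 genes were tested and 0 passed. Among all 15233 genes tested, 0% were called in either direction and 0% passed on the adjusted p alone, the smallest adjusted p being 0.0789, although 1308 genes had an unadjusted p below 0.05 in edgeR. DESeq2 called 1 gene and limma-voom 1 gene in this comparison, a fit of all 9 libraries called 2, and edgeR without a filter on low counts called 138. Of the 8 genes, Irs2, Foxo1 and Igf1r had an unadjusted edgeR p below 0.05 (0.0146, 0.0435 and 0.0451). In Ad-hHIF2 against Ad-hHIF1, 8 genes were tested, 2 passed as higher (Igfbp3 and Foxo1) and 1 as lower (Igfbp7), and 2 of these 3 were called. Among all 15556 genes tested, 2.42% were called higher and 3.7% lower, and 13.7% passed as higher and 12% as lower. Igfbp3, Igfbp7 and Foxo1 therefore passed in Ad-hHIF2 against both other groups, and Foxo1 fell short of 2-fold against Ad-hHIF1.

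**Figure D3:**
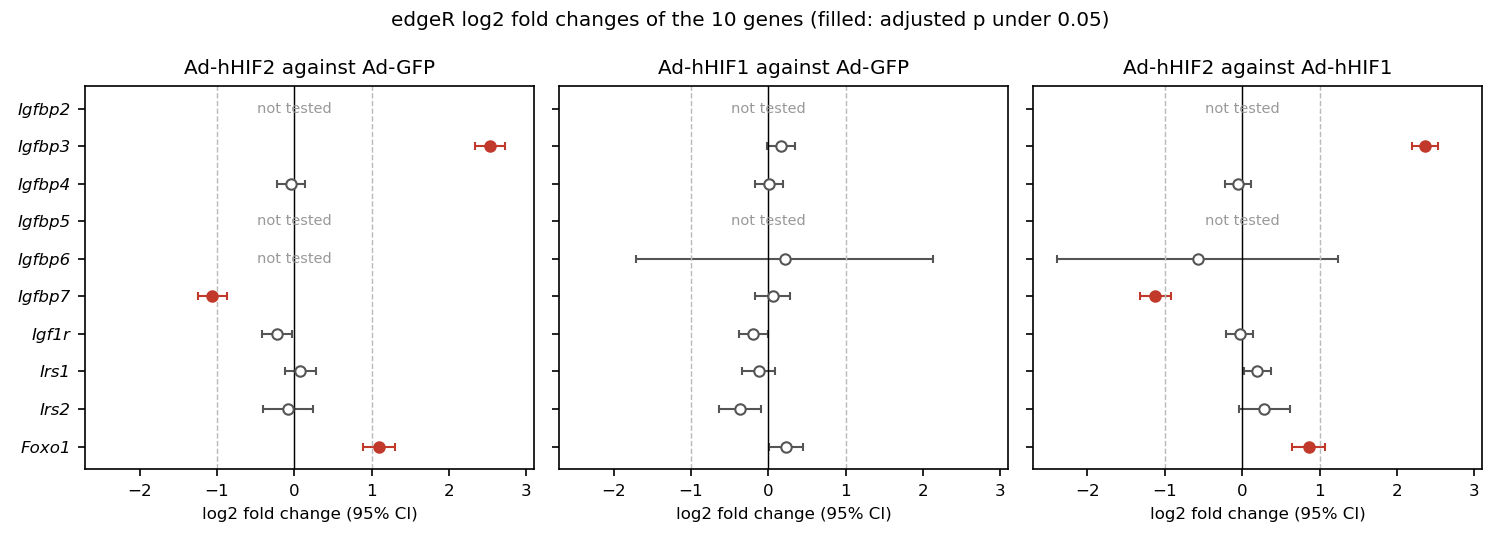
Log2 fold change with its 95% confidence interval for the tested genes among the 10 in the 3 comparisons, from edgeR. Filled points mark an adjusted p below 0.05 and dashed lines stand at 2-fold. Igfbp2 and Igfbp5 were not tested in any comparison, and Igfbp6 was not tested in Ad-hHIF2 against Ad-GFP. Igfbp3, Igfbp7 and Foxo1 stand away from 0 in both panels with Ad-hHIF2, and the interval of Igfbp6 is wide because it rests on 3 to 21 counts a library.

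Per transcript length the 10 genes spanned a wide range. In Ad-GFP the order of mean TPM was Igfbp4 (33.5), Igfbp7 (18.8), Igfbp3 (10.9), Irs2 (1.76) and Igf1r (1.33), and each of the 3 libraries kept this order. Foxo1 (0.363) and Irs1 (0.36) followed and changed places between libraries. In Ad-hHIF1 the order was the same, but Irs2 (1.3 TPM) lay below Igf1r (1.33 TPM) in replicate 3, and Foxo1 (0.44 to 0.53 TPM) lay above Irs1 (0.38 TPM in each library). In Ad-hHIF2 every library had the order Igfbp3, Igfbp4, Igfbp7, Irs2, Igf1r, Foxo1 and Irs1. In replicate 1 Irs2 stood at 3.15, Igf1r at 2.22 and Foxo1 at 1.74 TPM, and in replicate 3 at 1.54, 1.22 and 0.81 TPM. Igfbp3, Igfbp4 and Igfbp7 led the receptor and its adaptors in all 3 groups, while Igfbp2, Igfbp5 and Igfbp6 came last, at mean TPM of 0.0 to 0.05.

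The rest of the pathway was read from lists of 77 other genes, of which 63 were tested in Ad-hHIF2 against Ad-GFP. Of these, 18 passed as higher and 10 as lower (28.6% and 15.9%, beside the 15.9% and 13.6% of all genes). The median log2 fold change was 0.11 over the lists and -0.01 over all genes tested. In Ad-hHIF1 against Ad-GFP, 0 of 63 passed, and in Ad-hHIF2 against Ad-hHIF1 18 of 64 passed as higher and 12 as lower (28.1% and 18.8%, beside 13.7% and 12% of all genes).

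Of the ligands only Igf1 reached the test, at 0.296 ± 0.26 CPM in Ad-GFP and 0.516 ± 0.10 CPM in the Ad-hHIF2 libraries (SD, n = 3), with a log2 fold change of 0.89 ± 0.86 (SE, edgeR adjusted p = 0.474). Igf2 stood at 0.0 to 0.31 CPM in every library and was not tested, nor were Ins1 and Ins2. The insulin receptor Insr was at 41.3 ± 1.16 CPM (SD) in Ad-GFP and 45.7 ± 4.86 CPM in Ad-hHIF2, a log2 fold change of 0.15 that did not pass (edgeR adjusted p = 0.230). Igf2r, which removes IGF2 from the cell surface and sorts lysosomal enzymes, was at 211.1, 193.4 and 206.7 CPM in Ad-GFP and 347.7, 333.5 and 328.2 CPM in Ad-hHIF2. It rose 1.66-fold (log2 fold change 0.73 ± 0.08, edgeR adjusted p = 0.000237), short of the 2-fold threshold, and stood at 177.5 to 207.4 CPM in Ad-hHIF1. Insrr, an orphan relative of the insulin receptor, fell 5.79-fold at very low levels, from 0.758 ± 0.33 CPM to 0.125 ± 0.05 CPM (SD, n = 3, edgeR adjusted p = 0.013). Its level in Ad-hHIF2 is near that of 3 counts, and the 95% confidence interval of its log2 fold change was wide, from -3.88 to -1.19.

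Among binding proteins, proteases and their inhibitors outside the 10 genes, 3 of 8 were tested and 2 passed, both lower. Stc2, an inhibitor of the protease that cleaves Igfbp4, fell 2.39-fold in Ad-hHIF2, from 3.47 ± 1.48 CPM to 1.45 ± 0.18 CPM (SD, n = 3, edgeR adjusted p = 0.0192). Of 7 adaptors and phosphatases tested, 3 passed as higher and none was called. Of 28 genes of the PI3K-AKT-mTOR list, 9 passed as higher and 2 as lower (32.1% and 7.14%, beside 15.9% and 13.6% of all genes), and the only one called was Ddit4, an inhibitor of mTORC1 signalling. Ddit4 was at 52.6, 53.16 and 44.14 CPM in Ad-GFP and 19.28, 22.17 and 19.34 CPM in Ad-hHIF2, a 2.46-fold fall (edgeR adjusted p = 3.64e-05), and at 50.05 to 63.62 CPM in Ad-hHIF1.

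Of 21 FOXO factors and known FOXO target genes, 5 passed as higher and 5 as lower (23.8% each, beside the same 15.9% and 13.6% of all genes). Among the factors, Foxo3 fell from a mean of 98.1 CPM in Ad-GFP to 73.0 CPM in Ad-hHIF2 (log2 fold change -0.42, edgeR adjusted p = 0.00624). Foxo4 rose from 4.92 to 7.49 CPM (edgeR adjusted p = 0.00703), and Foxo6 did not pass (edgeR adjusted p = 0.061). Fbxo32, a ubiquitin ligase known from muscle atrophy, rose 2.46-fold (edgeR adjusted p = 6.69e-06) and Cited2, a transcriptional co-regulator that restrains HIF activity, rose 2.15-fold (edgeR adjusted p = 0.000193). Txnip, which limits glucose uptake, fell 2.34-fold (edgeR adjusted p = 2.84e-05), and Pdk4, a kinase that limits pyruvate use by mitochondria, fell 2.18-fold (edgeR adjusted p = 0.00208). Gadd45a, a stress response gene, fell 2.08-fold (edgeR adjusted p = 3.7e-05). In the comparison of Ad-hHIF2 with Ad-hHIF1, Stc2, Insrr, Ddit4 and Pdk4 were called lower and Cited2 and Fbxo32 higher. Of the 5 genes of this list called in Ad-hHIF2 against Ad-GFP, 2 were higher and 3 lower, beside the 2.9% and 3.83% of all genes called in this comparison.

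**Figure D4:**
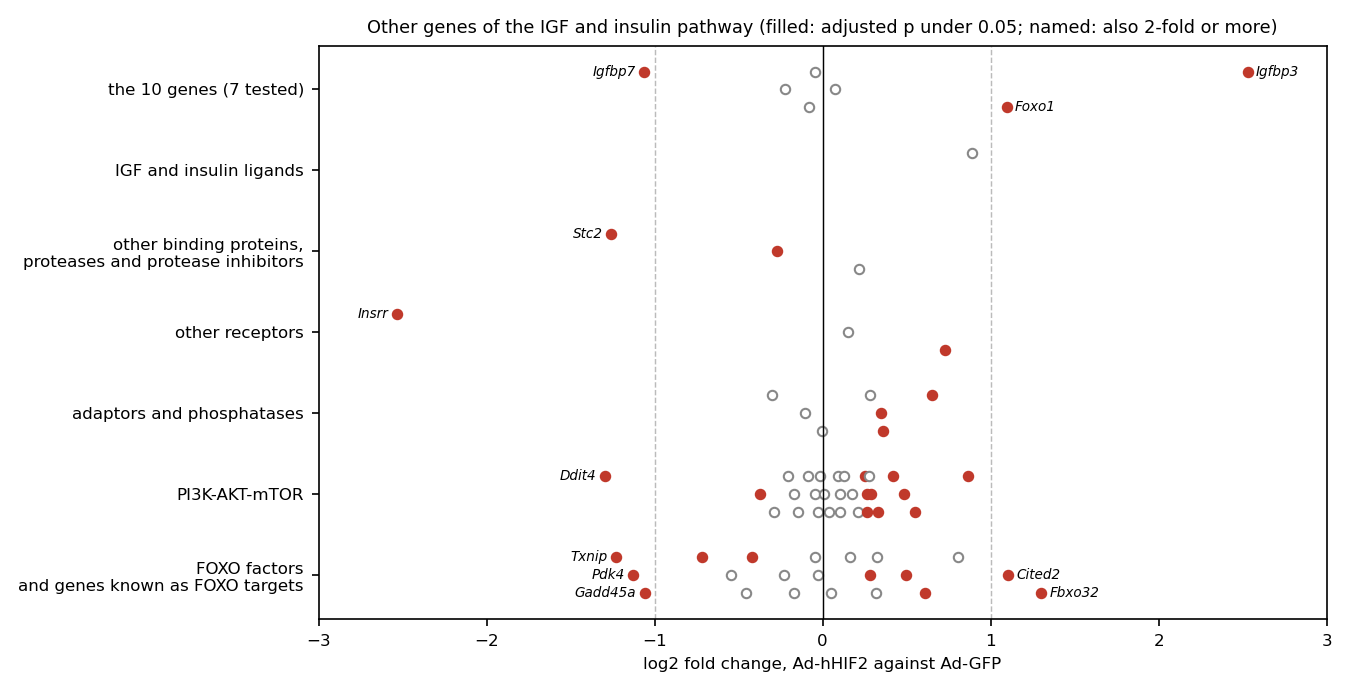
Log2 fold change in Ad-hHIF2 against Ad-GFP of the tested genes among the 10 and of each pathway list, 1 point per gene, with filled points where the edgeR adjusted p is below 0.05, dashed lines at 2-fold and names for called genes. The FOXO list holds 5 filled points on either side of 0, and the PI3K-AKT-mTOR list 9 to the right and 2 to the left.

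The genes whose log2 CPM followed the 3 called genes most closely over the 9 libraries were found among 12394 genes. For Igfbp3 these were Adipor2 (Pearson r = 0.9991), Angptl4 (0.9988) and Loxl2 (0.9987). For Igfbp7 they were Aimp2 (0.9976), Got1 (0.9961) and Syce2 (0.9942), and for Foxo1 Add3 (0.9956), Pitpnc1 (0.9947) and Map3k2 (0.992). The 9 points share their libraries and fall into 3 groups, so that r mainly describes the difference between the groups.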

How the data were processed

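Expected counts and TPM of 46517 genes in 9 libraries (3 groups of 3) were used as deposited. The authors removed low-quality reads and made the expected counts with RSEM, which shares reads between transcripts, without normalization. The authors also deposited TPM and effective lengths from the same program. The RSEM version, aligner, genome build, annotation and strandedness are not given in the sources used here. EBSeq, the test of the authors, was replaced here by edgeR. Of the expected counts, 85.7% were whole within 1e-09 with zeros included, and 68.7% of those above 0, and Igfbp4 and Irs1 had fractional counts in all 9 libraries, Irs2 in 5 and Foxo1 in 3, so reads there were shared with other transcripts. Without a stated strandedness, reads of overlapping antisense genes cannot be told apart.

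Expected counts were rounded, low genes were removed with filterByExpr, and groups were compared with the quasi-likelihood test of edgeR 4.0.16 (limma 3.58.1, R 4.3.3) after TMM scaling, with Benjamini-Hochberg adjustment over all genes. The 6 libraries of a HIF group and Ad-GFP made up each fit against the control, and the direct contrast of both HIF groups used all 9. Called genes had adjusted p under 0.05 and at least a 2-fold change. Fold changes are of fitted counts. The study calls the replicates biological, but no label ties them to separate mice or cultures, and p-values measure the spread between these libraries, which may then be partly technical. The smallest p of an exact two-sided permutation test of 3 against 3 is 0.1. The 10 genes and the pathway and marker lists were chosen with earlier results of these data known, and 10 intestinal markers were added after the first marker levels were seen. All 10 genes are named, as are pathway genes called in any comparison, Igf1, Igf2, Insr and Igf2r, and the 3 genes most correlated with each called gene. Foxo3, Foxo4 and Foxo6 are named too, a choice made after their results were seen. Positions are those of GENCODE M21 (GRCm38), matched by Ensembl identifier for 46005 genes, since the tables hold none. The alternatives were other filters, scalings, tools (DESeq2 1.42.0, limma-voom, limma on TPM), samples and thresholds, and a replicate block. The methods were tested on simulated counts. Python 3.11.15 and matplotlib 3.10.9 were used for tables and figures.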

Additional observations from a re-analysis of the deposited data

How the results depend on the processing

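Igfbp3 kept its direction and its call in Ad-hHIF2 against both other groups under every alternative run (log2 fold change 2.50 to 2.96 against Ad-GFP and 2.33 to 2.62 against Ad-hHIF1). The median log2 fold change of all genes in Ad-hHIF2 against Ad-GFP was -0.01 with TMM, 0.25 under library totals and 0.30 on log2(TPM + 0.1). Relative to that median, Igfbp7 stood at -1.04 under library totals and at -0.91 on log2(TPM + 0.1), where it did not pass (-0.61, limma adjusted p = 0.253), and Igf1r by -0.21 and -0.09. Igfbp2, Igfbp5 and Igfbp6 had at most 21 counts in any library. Against Ad-hHIF1, Igfbp7 stood at -0.94 under library totals, where it still passed (edgeR adjusted p = 0.00176), and at -0.81 and -0.86 on log2(TPM + 1) and log2(TPM + 0.1), where it did not (limma adjusted p = 0.142 and 0.0947).

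On log2(TPM + 1), 1 of the 10 genes was called in Ad-hHIF2 against Ad-GFP and 1 against Ad-hHIF1, and on log2(TPM + 0.1) 2 and 1. Under library totals 2 were called in each, Igfbp3 and Foxo1. Foxo1 against Ad-hHIF1 reached 1.055, but relative to the median 0.882, short of 2-fold. Igfbp7 lay under 2-fold. Without Ad-GFP replicate 4, 2 were called in Ad-hHIF2 against Ad-GFP, since Igfbp7 fell by 0.9995. Over all genes, calls in Ad-hHIF2 against Ad-GFP fell to 237 on log2(TPM + 1) and were 4416 on the adjusted p alone. Against Ad-hHIF1 they were 138 on log2(TPM + 1), 408 on log2(TPM + 0.1) and 4008 on the adjusted p alone, and ran from 585 (without Ad-hHIF2 replicate 1) to 1160 when each library was left out (629 without Ad-hHIF2 replicate 3). In Ad-hHIF1 against Ad-GFP they were 138 without a count filter, 1 with DESeq2, 1 with limma-voom and 2 in a fit of all 9 libraries. The cause of these differences was not tested.

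Signs turned only for genes that did not pass. In Ad-hHIF2 against Ad-GFP, under library totals, log2(TPM + 1) and log2(TPM + 0.1), Igf1r stood at 0.0317, 0.15 and 0.22, Igfbp4 at 0.22, 0.35 and 0.35, and Irs2 at 0.17, 0.25 and 0.34. Relative to the median of all genes under library totals, Igfbp4 stood at -0.0244 and Irs2 at -0.0717, the same sign as with TMM, but on log2(TPM + 1) and log2(TPM + 0.1) the sign stayed turned, at 0.222 and 0.0513 for Igfbp4 and 0.125 and 0.0388 for Irs2, and Igf1r stood at 0.0214 on log2(TPM + 1). Against Ad-hHIF1, Igf1r stood at 0.15, 0.15 and 0.22 and Igfbp4 at 0.13, 0.20 and 0.21. Relative to the median of all genes these were -0.0262, 0.086 and 0.0491 for Igf1r and -0.0394, 0.142 and 0.0361 for Igfbp4, with the sign of TMM only under library totals. In Ad-hHIF1 against Ad-GFP, Irs1 stood at 0.0212 and 0.063 on the TPM scales (-0.0236 and -0.068 relative to the median of all genes, the sign of TMM), and Igfbp6 at -0.0207 with limma-voom. With each library left out, in Ad-hHIF2 against Ad-GFP Irs1 ran from -0.0038 to 0.15 and Irs2 from -0.25 to 0.035, and against Ad-hHIF1 Igf1r ran from -0.0754 to 0.00527. In Ad-hHIF1 against Ad-GFP, Igfbp4 ran from -0.0365 to 0.0326, Igfbp6 from -0.26 to 1.008 and Igfbp7 from -0.0287 to 0.11.

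With the replicate number as a replicate block, the log2 fold change in Ad-hHIF2 against Ad-GFP was 2.53 for Igfbp3, -1.06 for Igfbp7 and 1.10 for Foxo1, and 3 genes were called as before. Igf1r passed under the block (-0.22, edgeR adjusted p = 0.033), the only one of the 10 genes to do so newly. Over all genes the block gave 1036 calls. The labels give only shared numbers, and same-numbered libraries of Ad-hHIF2 and Ad-GFP correlated by 0.0752, 0.0703 and 0.134 in their deviations from the group means, so the numbers were not taken as pairs.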
